A study of Mus musculus with 12 samples.

Results

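Genes of the hair follicle bulge and outer root sheath (ORS) were followed in basal cells sorted from healing tail epidermis. The set held 8 genes, Krt15, Sox9, Lhx2, Nfatc1, Tcf7l1, Lgr5, Cd34 and Cd200, taken by symbol among the probe sets annotated to a single gene. These were 8 of the 17097 genes and 16 of the 28898 such probe sets on the arrays. A gene with several probe sets is led by the brightest of them over the 12 arrays, and the others are given beside it.

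The bulge is the part of the ORS that holds slow-cycling hair follicle stem cells, and the ORS below it surrounds the growing hair. The transcription factors Sox9, Lhx2, Nfatc1 and Tcf7l1 are known for their roles in keeping this state, mouse bulge cells carry CD34 and CD200 at their surface, and Lgr5 marks cells of the lower bulge and hair germ. After wounding, progeny of bulge cells can enter the interfollicular epidermis (IFE). Several of these genes are not limited to the follicle: Krt15 is also made by basal cells of the IFE, and Cd34 by endothelium.

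Tail skin of CD1 mice carrying a 3 mm wound was collected at day 4 and day 7 (D4 and D7). The leading edge (LE) was cut with a punch of 4 mm at the wound, the proliferative hub was cut with one of 6 mm, and control tissue came from a distance. Each region and day had 2 arrays, each from a pool of 5 mice and 300 sorted cells, so that 12 arrays fell into 6 groups. Sorted cells were high for α6-integrin and negative for CD34, a gate that takes basal cells of the IFE and infundibulum and was set to leave bulge cells out. A low level of Cd34 is therefore in part what the sort selected and is no result. Biological replicates is what the labels call both arrays of each group, but neither they nor the methods say whether these were separate pools, and a p-value here measures only the spread between these samples. For proliferation experiments the methods name adult CD1 mice of both sexes, and they do not repeat age or sex for the array samples.

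Values are log2 intensities (log2 levels below), and differences are log2 fold changes. All 12 arrays entered a single limma fit, and a difference was called when its p, adjusted over all 17097 genes by the Benjamini-Hochberg method, was under 0.05. Array medians over all probe sets lay between 5.4 and 5.47 on D4 arrays but between 4.25 and 4.28 on D7 arrays, so levels were compared within a day only. Within a group, r between arrays was 0.987 to 0.993 over probe sets, which are not independent of each other. All 8 basal IFE markers (Krt5, Krt14, Itga6, Itgb4, Itgb1, Trp63, Dst and Col17a1) lay above the median of each array in every group, as the labelled cell type requires. Precision is limited by the number of arrays.

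Krt15, a type I keratin of bulge and basal cells, was the member with the largest difference. At D4 its log2 levels were 7.26 and 8.31 in the LE, 9.13 and 10.25 in the hub and 10.01 and 10.52 in control. At D7 they were 7.67 and 8.09 in the LE, 9.15 and 9.19 in the hub and 9.82 and 9.69 in control. On each day both LE arrays lay below all hub and control arrays, while a hub array lay between the control arrays at D4 and both hub arrays lay below control at D7. In the LE, Krt15 was lower than in control by a log2 fold change of -2.48 at D4 (SE 0.39, 95% interval -3.35 to -1.61, adjusted p = 0.00256) and of -1.88 at D7 (SE 0.39, 95% interval -2.75 to -1.01, adjusted p = 0.0108). These correspond to intensities 5.58-fold and 3.67-fold lower. The D4 call held when any array was left out. The D7 call was lost without leading edge D7 replicate 1 (adjusted p = 0.0906), without control D7 replicate 1 (adjusted p = 0.0637) and without control D7 replicate 2 (adjusted p = 0.0518). In sorted pools, fewer Krt15-positive cells and less Krt15 RNA per cell cannot be told apart.

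The hub means of Krt15 lay between those of the LE and control on both days. Its differences from control were -0.57 at D4 (95% interval -1.45 to 0.30, adjusted p = 0.720) and -0.58 at D7 (95% interval -1.45 to 0.29, adjusted p = 0.602), neither of them called. The LE lay below the hub by -1.90 at D4 (SE 0.39, adjusted p = 0.0230), a call that was lost without leading edge D4 replicate 1 (adjusted p = 0.137) and without proliferative hub D4 replicate 2 (adjusted p = 0.146). At D7 the LE minus hub difference was -1.29 (SE 0.39, adjusted p = 0.126) and was not called, but it was called when only the 6 arrays of that day were fitted (adjusted p = 0.00655). The study's methods used a fold rule, more than 2-fold the same way in each replicate, here with each array set against the array of the same number. By it Krt15 was lower in the LE than in control and than in the hub on both days. No label ties a number to shared mice, and at D4 the result against the hub depended on this matching. Leading edge D4 replicate 2 (8.31) and proliferative hub D4 replicate 1 (9.13) stood less than 2-fold apart. The change of the LE difference of Krt15 from control between D4 and D7 was 0.60 (SE 0.55, adjusted p = 0.878), so the days were not shown to differ.

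**Figure D1:**
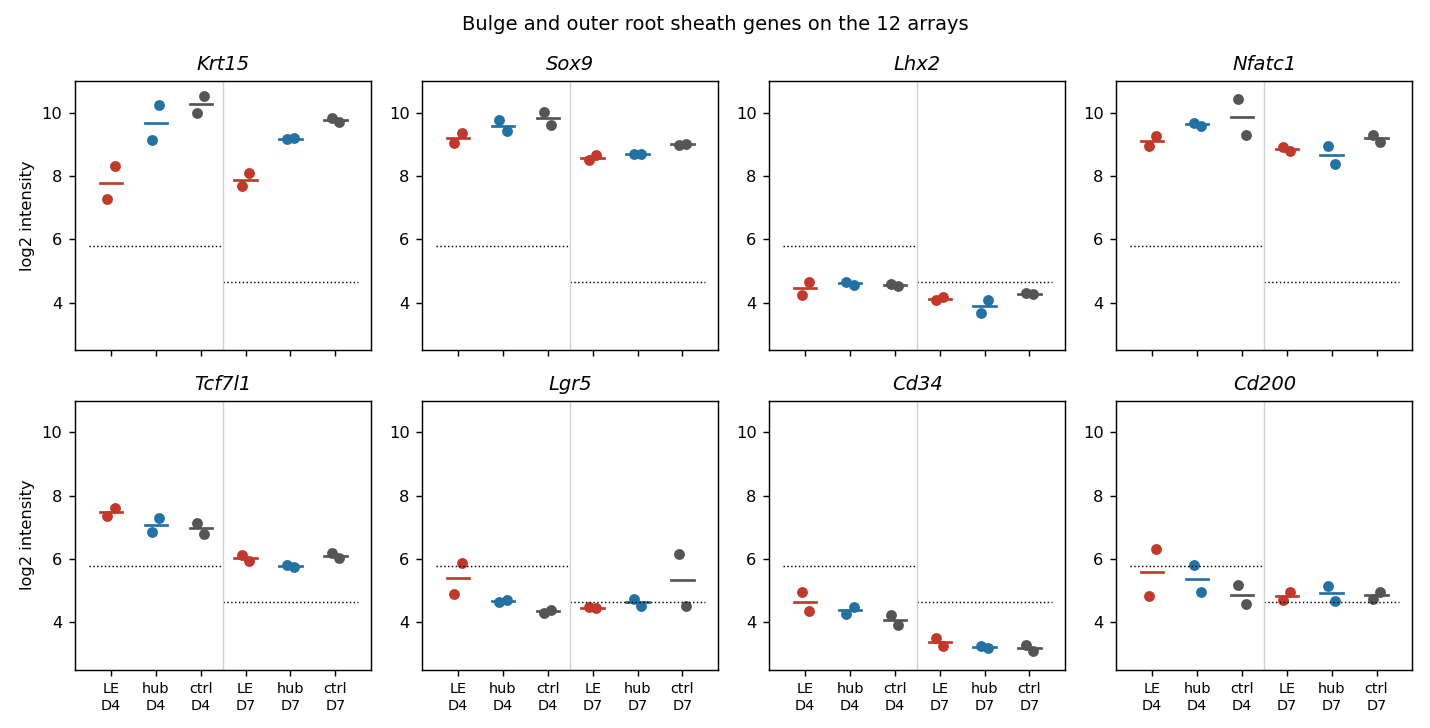
Log2 intensity of the 8 genes (vertical axis) on each of the 12 arrays, for LE, hub and control (ctrl) at D4 and D7. Points are arrays, short bars are means of the 2 arrays of a group, and the dotted line marks the mean over a day's arrays of the median of single-gene probe sets. Krt15 shows the LE arrays, 7.26 to 8.31, below all others, and Lhx2 and Cd34 stay under the dotted line.

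Sox9, a transcription factor that specifies and maintains hair follicle stem cells, was measured by 3 probe sets that disagreed at D4. The leading probe set had log2 levels of 9.06 and 9.37 in the LE, 9.76 and 9.41 in the hub and 10.01 and 9.63 in control at D4. At D7 it had 8.51 and 8.65 in the LE, 8.70 and 8.69 in the hub and 8.98 and 9.02 in control. The LE arrays lay below both other regions on each day, by distances much smaller than for Krt15. The LE difference from control was -0.61 at D4 (SE 0.17, adjusted p = 0.0366, called lower) and -0.42 at D7 (SE 0.17, adjusted p = 0.131, not called). The remaining probe sets gave 0.31 (SE 0.20) and 0.09 (SE 0.13) at D4 and -0.18 and -0.03 at D7, none of them called. When the mean of the 3 probe sets stood for the gene, the D4 difference was -0.07 (adjusted p = 0.854).

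The Sox9 call at D4 was also the less stable one. It was lost without leading edge D4 replicate 1 (-0.45, adjusted p = 0.211) and without control D4 replicate 1 (-0.41, adjusted p = 0.211), and it rose just over the threshold, to an adjusted p of 0.0541 to 0.0572, without any single array of D7. With the 6 arrays of D4 alone the adjusted p was 0.140, whereas with those of D7 alone the D7 difference was called (adjusted p = 0.0406). In the hub, Sox9 differed from control by -0.23 at D4 (adjusted p = 0.748) and -0.31 at D7 (adjusted p = 0.489), and neither was called.

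Nfatc1, the calcineurin-dependent factor linked to stem cell quiescence in the bulge, was bright on all arrays and had 5 probe sets. Its leading probe set had log2 levels of 8.96 and 9.26 in the LE, 9.67 and 9.59 in the hub and 10.43 and 9.28 in control at D4. At D7 it had 8.92 and 8.79 in the LE, 8.95 and 8.38 in the hub and 9.30 and 9.07 in control. The 2 control arrays of D4 stood further apart than any other pair for this gene, and the LE arrays lay below control on both days. The LE difference was -0.75 at D4 (SE 0.32, adjusted p = 0.169) and -0.33 at D7 (SE 0.32, adjusted p = 0.584), with no call. Without control D4 replicate 2 the D4 difference was -1.33 and was called (adjusted p = 0.00758). All 5 probe sets had negative D4 differences, between -0.85 and -0.08, with none called.

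The same control arrays of D4 differed in infundibulum genes. Krt79, a keratin of the infundibulum, had 9.97 and 9.12 in the LE, 10.42 and 8.55 in the hub and 10.38 and 7.85 in control at D4. In each region of D4, and not in control alone, replicate 1 was the higher for Krt79 and the lower for Krt15. The control array with high Krt79 was the one with high Nfatc1 and Sox9, and the mean log2 level of the 7 measured infundibulum and isthmus markers was 8.32 to 8.64 in the LE, 8.18 to 9.05 in the hub and 7.86 to 9.23 in control at D4. None of the 7 was called in the LE at D4. The part of this spread in the values of Nfatc1 and Sox9 was not tested.

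Tcf7l1, the Wnt-pathway repressor known as TCF3, was the transcription factor of the set with a positive difference in the LE. Its leading probe set had log2 levels of 7.36 and 7.61 in the LE, 6.86 and 7.30 in the hub and 7.13 and 6.79 in control at D4. At D7 it had 6.11 and 5.95 in the LE, 5.82 and 5.73 in the hub and 6.18 and 6.02 in control. At D4 the LE arrays lay above all others, and at D7 they overlapped control. The LE difference from control was 0.52 at D4 (SE 0.17, adjusted p = 0.0743) and -0.07 at D7 (SE 0.17, adjusted p = 0.866). The D4 difference was called without either hub array of D4 (adjusted p = 0.0481 for each). The second probe set gave 0.42 (SE 0.27) at D4 and -0.41 (SE 0.27) at D7, with no call.

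Lhx2, a LIM-homeodomain factor of the hair germ and bulge, had a single probe set that lay below the median of single-gene probe sets on 12 of 12 arrays. Its log2 levels were 4.26 and 4.65 in the LE, 4.66 and 4.55 in the hub and 4.59 and 4.52 in control at D4. At D7 they were 4.08 and 4.17 in the LE, 3.69 and 4.09 in the hub and 4.31 and 4.26 in control. The regions overlapped at D4, and at D7 control was the highest by a small margin. The LE differences were -0.11 (95% interval -0.46 to 0.25) and -0.16 (95% interval -0.51 to 0.19), and the hub difference at D7 was -0.40 (unadjusted p = 0.0316, adjusted p = 0.324). No detection calls were used here, so whether such a level is above background is unknown.

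Lgr5, the R-spondin receptor of the lower bulge, was dim apart from 3 arrays. At D4 its log2 levels were 4.89 and 5.88 in the LE, 4.63 and 4.70 in the hub and 4.31 and 4.39 in control. At D7 they were 4.47 and 4.44 in the LE, 4.75 and 4.52 in the hub and 6.16 and 4.52 in control. The high values were thus leading edge D4 replicate 2, control D7 replicate 1 and, just above its array's median, proliferative hub D7 replicate 1, and in the LE and control groups the partner array did not share them. The LE difference was 1.03 at D4 (SE 0.44, adjusted p = 0.176) and -0.88 at D7 (SE 0.44, adjusted p = 0.243), with no call.

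A single control array set the Lgr5 values of D7. Without control D7 replicate 1 the LE difference was -0.07 at D7 (adjusted p = 0.943) and the hub difference 0.11 (adjusted p = 0.952). Without control D7 replicate 2 they were -1.70 (adjusted p = 0.0171, called lower) and -1.53 (adjusted p = 0.138). Leaving out either of these arrays also brought the D4 difference of 1.03 to an adjusted p of 0.0325. The second Lgr5 probe set was below the array median on 12 of 12 arrays and gave 0.08 at D4 and -0.19 at D7 (SE 0.18 each).

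Cd34, the antigen by which bulge cells were gated out, was below the array median on 12 of 12 arrays. Its log2 levels were 4.94 and 4.35 in the LE, 4.27 and 4.47 in the hub and 4.24 and 3.91 in control at D4. At D7 they were 3.52 and 3.26 in the LE, 3.26 and 3.20 in the hub and 3.28 and 3.08 in control. The LE lay above control at D4 and overlapped it at D7. All values lay between percentiles 5.46 and 32.8 of the single-gene probe sets of their arrays. The LE difference was 0.57 at D4 (SE 0.20, adjusted p = 0.0874) and 0.21 at D7 (SE 0.20, adjusted p = 0.584). Without leading edge D4 replicate 2 the D4 difference was 0.87 and was called (adjusted p = 0.0182), and with a trended and robust prior that of 0.57 was called (adjusted p = 0.0449).

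Since endothelium also makes Cd34, its markers were read beside it. Of 8 measured (Pecam1, Cdh5, Kdr, Tie1, Tek, Emcn, Cldn5 and Egfl7), 1 was called higher in the D4 LE than in control (Tie1, 1.06, adjusted p = 0.00627) and 3 at D7 (Cdh5, Tie1 and Cldn5), with 0 lower. Over all genes 8.3% were called higher at D4 and 9.25% at D7, so the D4 count is near that share. At D7 Cdh5 differed by 2.03, while its other probe set gave 0.62. The calls of Cdh5 and Cldn5 were lost in 4 and 1 of 12 fits that left out an array, at most 0.139 and 0.0716 without leading edge D7 replicate 1. Their mean log2 level at D7 was 5.36 to 5.42 in the LE, 4.37 to 4.46 in the hub and 4.36 to 4.63 in control. At D4 it was 6.01 to 6.40 in the LE, 5.61 to 6.03 in the hub and 5.35 to 6.33 in control. Their part in the Cd34 values was not tested.

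Cd200, an immunoglobulin-family surface protein that dampens immune cells and marks human bulge cells, gave scattered values at D4. Its log2 levels were 4.82 and 6.32 in the LE, 5.79 and 4.94 in the hub and 5.16 and 4.59 in control at D4. At D7 they were 4.69 and 4.94 in the LE, 5.16 and 4.67 in the hub and 4.74 and 4.97 in control. All regions overlapped on both days. The LE difference was 0.70 at D4 (SE 0.44, adjusted p = 0.391) and -0.04 at D7 (95% interval -1.03 to 0.95). Without leading edge D4 replicate 1 the D4 difference was 1.45 and was called (adjusted p = 0.0416), so the value rested on the other LE array.

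**Figure D2:**
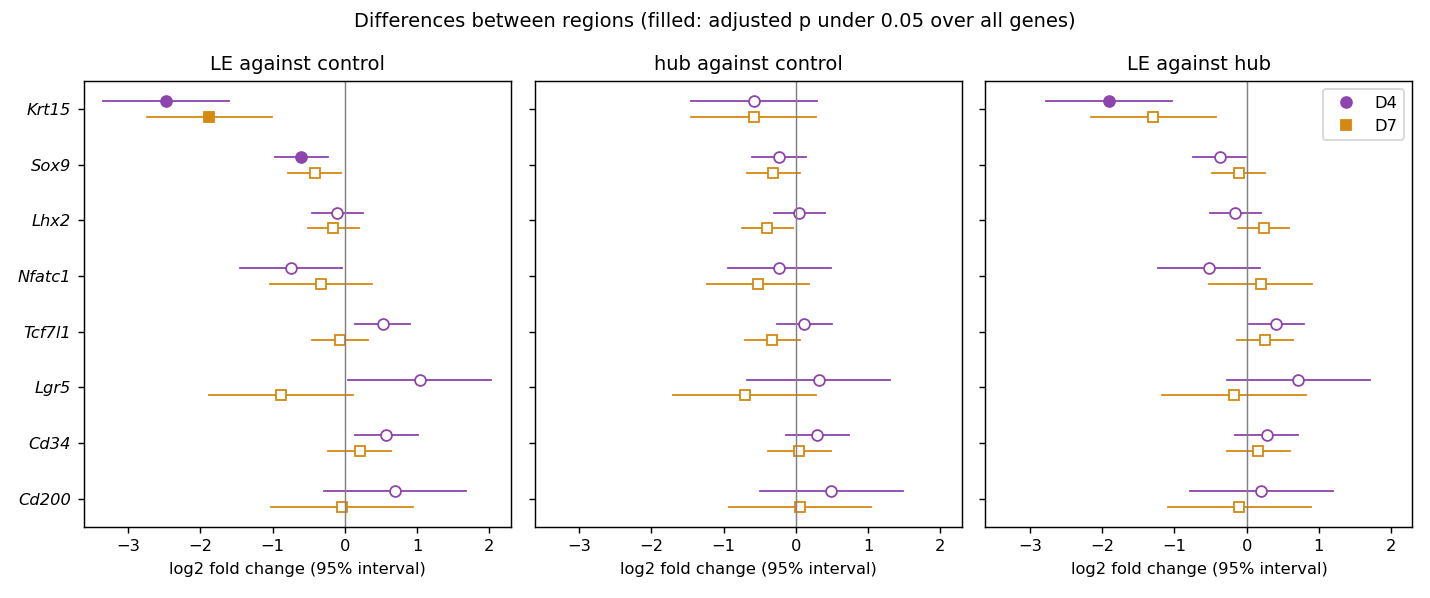
Log2 fold changes (horizontal axis) of the 8 genes for LE against control, hub against control and LE against hub at D4 (circles) and D7 (squares), from limma on 2 arrays a group. Bars are 95% intervals and filled symbols are adjusted p under 0.05 over all genes. The 4 filled symbols are Krt15 (-2.48, -1.88 and -1.90) and Sox9 (-0.61), and the hub panel has none.

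Counted over the set, limma called 2 of 8 genes lower and 0 higher in the D4 LE, and 1 lower and 0 higher in the D7 LE, relative to control. Over all genes tested the LE comparisons called 14.1% at D4 (5.83% lower and 8.3% higher) and 14.6% at D7 (5.37% lower and 9.25% higher). Those shares amount to about 1 gene in 8, so the counts do not set the 8 genes apart from the rest of the array. At an unadjusted p under 0.05 there were 6 members at D4 and 2 at D7. The share of all genes at that unadjusted cut was not counted, here or for the comparisons below. Such counts therefore say nothing about the 8 genes as a set. The fold rule was met by 1 member on each day, Krt15, and by 3.82% and 3.34% of all genes. The median log2 fold change of the members in the LE was 0.21 at D4 and -0.25 at D7, against 0.03 and 0.02 over all genes.

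In the hub 0 members were called at either day by limma, where 0.328% of all genes at D4 and 0.76% at D7 were called. By unadjusted p under 0.05 there were 0 at D4 and 1 at D7 (Lhx2), and the fold rule gave 0 on both days, with 0.445% and 0.509% of all genes meeting it. The hub median of the members was 0.08 at D4 and -0.36 at D7, against 0.01 and 0.02 over all genes. Between the LE and the hub, limma called 1 member at D4 (Krt15, lower) and 0 at D7, with 4.76% (2.15% lower) and 2.73% (1.4% lower) of all genes called, and 3 and 1 members had an unadjusted p under 0.05. By the fold rule, with arrays matched by number, Krt15 was lower in the LE than in the hub on both days. At D4 this depended on the matching. Over all genes 1.78% and 1.16% met the rule.

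The arrays of 2 groups often failed to overlap, with only 2 values on each side. In the LE, 3 members lay wholly below control at D4 (Krt15, Sox9 and Nfatc1) and 3 wholly above (Tcf7l1, Lgr5 and Cd34), where 20.2% and 29.2% of all genes did so. At D7, 5 lay wholly below (Krt15, Sox9, Lhx2, Nfatc1 and Lgr5) and 0 above, against 23.5% and 31.5% of all genes. In the hub at D7, 5 lay wholly below control (Krt15, Sox9, Lhx2, Nfatc1 and Tcf7l1), against 18.1% of all genes. The LE and hub comparisons of a day share their control arrays.

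No member changed its difference between the days at the threshold. The largest such change was that of Lgr5 in the LE, -1.92 (SE 0.63, adjusted p = 0.454), and the other with an unadjusted p under 0.05 was that of Tcf7l1 in the LE, -0.59 (adjusted p = 0.600). By limma 0 of 8 were called in each of the changes of LE against control, hub against control and LE against hub, with 2, 0 and 0 at an unadjusted p under 0.05, and 0.0292%, 0% and 0.0175% of all genes called.

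**Figure D3:**
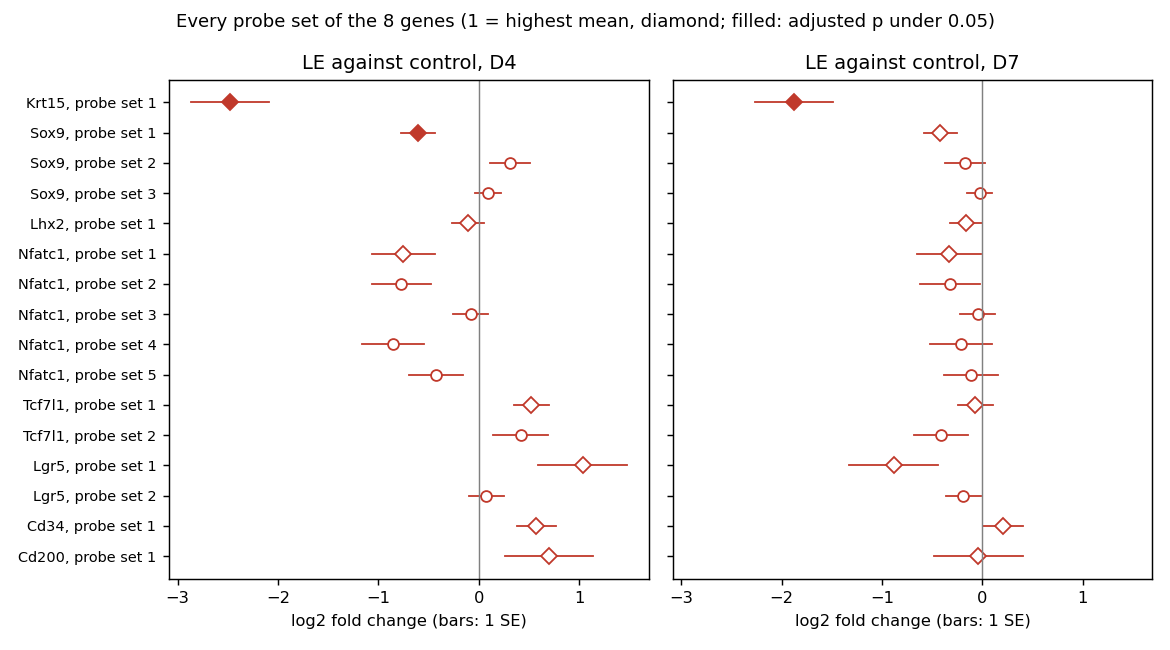
Log2 fold change of LE against control (horizontal axis) at D4 and D7 for all 16 probe sets of the 8 genes, from limma on 2 arrays a group, adjusted over all single-gene probe sets. Diamonds are the probe sets that stand for a gene, circles the others, bars 1 SE, and filled symbols adjusted p under 0.05. The 3 Sox9 probe sets run from -0.61 to 0.31 at D4, while the 5 of Nfatc1 are all negative.

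With each of the 16 probe sets tested by itself over all 28898, the calls were the same 2 probe sets in the LE at D4 (Krt15, adjusted p = 0.00273, and the leading Sox9 probe set, adjusted p = 0.0391) and 1 at D7 (Krt15, adjusted p = 0.0116). Over all single-gene probe sets 13.1% were called in the LE at D4 and 13.6% at D7. Of the other probe sets of Sox9, Nfatc1, Tcf7l1 and Lgr5, 0 were called in any comparison of regions.

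Among 21 other genes known from the bulge and ORS, some but not all differed more in the LE than most members did. At D4, 3 of them were called above control and 6 below, and at D7, 2 above and 5 below. Over all genes 8.3% and 5.83% were called above and below at D4, and 9.25% and 5.37% at D7. Their median was -0.04 and -0.10, against 0.03 and 0.02 over all genes. Falls and rises thus stood side by side in this list, and Krt24 was not analysed here.

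Npnt, a matrix protein that bulge cells deposit, had log2 levels of 7.06 and 6.83 in the LE, 8.49 and 8.68 in the hub and 8.90 and 8.98 in control at D4. At D7 it had 6.97 and 6.93 in the LE, 8.16 and 8.38 in the hub and 9.09 and 8.95 in control. The hub lay between the LE and control on both days, as for Krt15 at D7. Npnt fell in the LE by -1.99 at D4 (adjusted p = 2.09e-05) and -2.07 at D7 (adjusted p = 3.61e-05), and in the hub at D7 it fell by -0.75 (adjusted p = 0.0331). The hub call was lost in 6 of 12 fits that left out an array, with the highest adjusted p of 0.180 without control D7 replicate 1.

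Hopx, a homeodomain protein without DNA binding that marks follicle stem cells, had 9.39 and 9.11 in the LE, 10.04 and 10.24 in the hub and 10.83 and 10.79 in control at D4. It was lower in the LE by -1.56 at D4 (adjusted p = 0.000173) and -1.45 at D7 (adjusted p = 0.000345). Postn, a matricellular protein, was lower by -1.32 (adjusted p = 0.000221) and -1.18 (adjusted p = 0.00053), and Gas1, a membrane-anchored Hedgehog co-receptor, by -1.26 (adjusted p = 0.000156) and -0.83 (adjusted p = 0.00171). These LE calls of Npnt, Hopx, Postn and Gas1 against control held when any array was left out, and the other probe sets of Npnt (-1.0 to -0.24 at D4) and Hopx (-2.04 at D4) had the same sign. Angptl7, a secreted angiopoietin-like protein, was lower at D4 (-1.50, adjusted p = 0.0186), with control arrays at 8.42 and 7.0, and lost the call in 2 of 12 such fits, at most 0.0940 without leading edge D4 replicate 1.

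In the opposite direction, Fgf18, a growth factor associated with the resting phase of the follicle, had 7.72 and 7.80 in the LE, 5.67 and 5.87 in the hub and 5.93 and 5.4 in control at D4. It rose in the LE by 2.10 at D4 (adjusted p = 6.64e-05) and 1.00 at D7 (adjusted p = 0.0042). Runx1, a transcription factor of stem cell activation, rose by 0.83 (adjusted p = 0.00256) and 0.71 (adjusted p = 0.00589). The D7 call of Runx1 was lost without leading edge D7 replicate 1 (adjusted p = 0.0593). Tnc, the matrix glycoprotein tenascin C, was called higher at D4 (0.88, adjusted p = 0.0145), but its other probe set gave -0.37, and the call was lost in 2 of 12 fits (at most 0.0889, without leading edge D4 replicate 1).

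Against the hub, the LE had 2 of these genes above and 5 below at D4, and 0 above and 5 below at D7. Over all genes 4.76% (2.15% lower) were called at D4 and 2.73% (1.4% lower) at D7. Fgf18 (1.99), Npnt (-1.64), Gas1 (-1.21) and Postn (-1.12) led at D4, and Runx1 was higher by 0.72, a call lost in 2 of 12 fits (at most 0.104, without proliferative hub D4 replicate 2). Npnt (-1.32), Hopx (-1.04), Gas1 (-0.97) and Postn (-0.76) led at D7. The calls of Hopx and Postn at D7 were lost in 2 and 4 of 12 fits (at most 0.0852 and 0.150, both without leading edge D7 replicate 1).

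**Figure D4:**
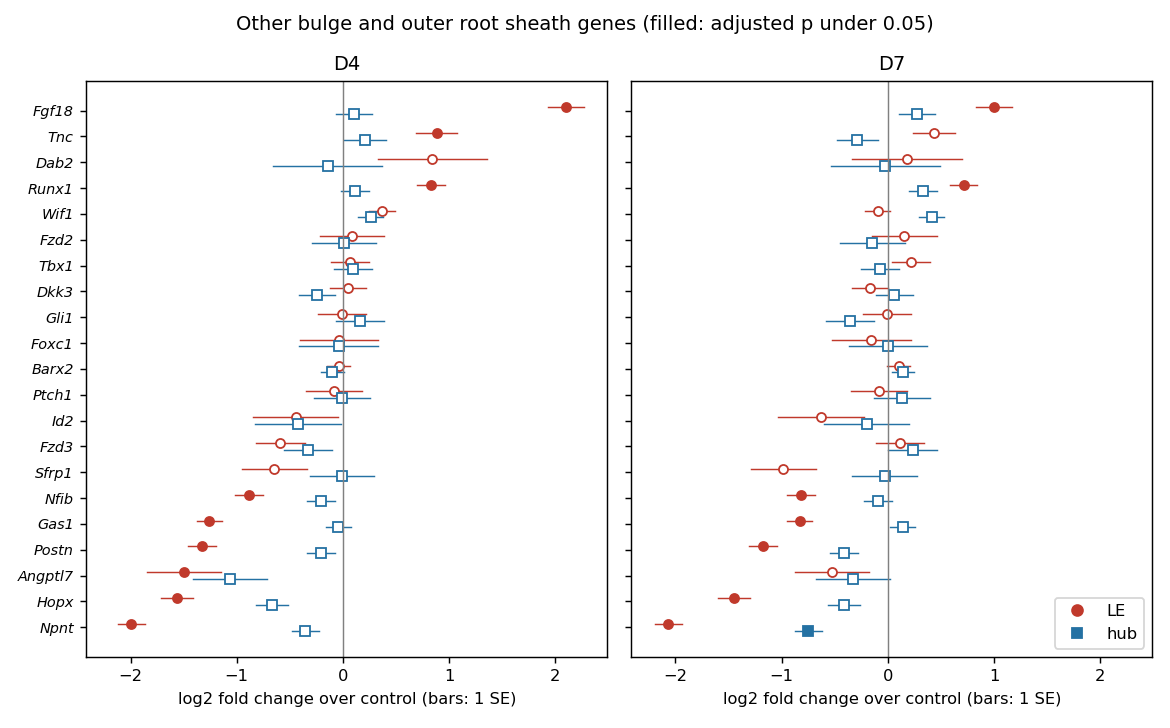
Log2 fold change over control (horizontal axis) of 21 other bulge and ORS genes in the LE (red circles) and hub (blue squares) at D4 and D7, from limma on 2 arrays a group. Bars are 1 SE, filled symbols are adjusted p under 0.05, and the order is by the LE value at D4. Npnt lies lowest at -1.99 and -2.07 and Fgf18 highest at 2.10 and 1.00, and the hub symbols stay nearer to 0 for both.

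Lgr5 and Tcf7l1 belong to the Wnt pathway, in which LGR receptors bind R-spondins and TCF proteins bind DNA. Of 16 measured genes around them, 5 were called lower and 0 higher in the D4 LE than in control, and 3 lower and 1 higher at D7, where 5.83% of all genes were called lower at D4 and 5.37% at D7. The list median was -0.22 and -0.15. Tcf7l2, a TCF factor with 3 other probe sets that ran from -0.44 to 0.04, was the smallest of the D4 calls (-0.41, adjusted p = 0.0425). It is named here after its values were seen. It lost the call in 11 of 12 fits that left out an array, at most 0.239 without leading edge D4 replicate 1. In the hub 0 were called by limma on either day. Between the LE and hub, 2.15% of all genes were called lower at D4 and 1.4% at D7. Of the 16, 2 were lower at D4 (Lgr4 and Tle2) and 0 at D7. Those calls were lost in 2 and 3 of 12 fits that left out an array, at most 0.0885 without proliferative hub D4 replicate 1 for Lgr4 and 0.195 without proliferative hub D4 replicate 2 for Tle2.

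Lgr4, the close relative of Lgr5, had 5.58 and 6.76 in the LE, 7.70 and 7.55 in the hub and 8.0 and 7.85 in control at D4. Its LE difference was -1.76 at D4 (adjusted p = 0.00316) and -1.08 at D7 (adjusted p = 0.0324), and the D7 call was lost in 6 of 12 fits (at most 0.132, without leading edge D7 replicate 2). The other Lgr4 probe set gave -0.48 at D4 and -1.11 at D7 against control, and -0.14 against the hub at D4. Tle2, a Groucho-type corepressor that TCF proteins recruit, was lower by -0.92 (adjusted p = 0.000947) and -0.91 (adjusted p = 0.00117), and these calls held when any array was left out. Its relative Tle3 was higher at D7 (0.67, adjusted p = 0.0419), a call lost in 6 of 12 fits (at most 0.203, without control D7 replicate 1).

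Of the Wnt feedback genes on the list, Axin2 and Znrf3 were called lower at D4 and Rnf43, a relative of Znrf3 chosen after its values were seen, was not (-0.70, adjusted p = 0.0506). Axin2 differed by -0.69 (adjusted p = 0.0245), and Znrf3, a ubiquitin ligase that removes Wnt receptors, by -0.73 (adjusted p = 0.0131). These calls were lost in 4 and 2 of 12 fits, at most 0.110 without control D4 replicate 1 and 0.0870 without control D4 replicate 2. Lgr6, the LGR receptor of the isthmus, was lower at D7 (-0.80, adjusted p = 0.0176), a call lost in 3 of 12 fits (at most 0.112, without control D7 replicate 1).

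Around Nfatc1, 10 calcineurin and NFAT genes were measured. In the LE 1 was called lower at D4, and 1 lower and 1 higher at D7, with 0 called by limma in the hub or between LE and hub. Over all genes 5.83% were called lower at D4, and 5.37% lower and 9.25% higher at D7. The LE counts therefore do not set this list apart. Nfat5, the family member that responds to osmotic stress and lacks calcineurin control, was lower by -0.77 at D4 (adjusted p = 0.00868) and -0.74 at D7 (adjusted p = 0.0103). Ppp3r1, the regulatory calcineurin subunit, was higher at D7 (0.75, adjusted p = 0.0205), while its 2 other probe sets gave -0.12 and 0.69. The call of Nfat5 at D4 was lost without control D4 replicate 2 (adjusted p = 0.0561), that at D7 in 2 fits (at most 0.0737) and that of Ppp3r1 in 3 fits (at most 0.144), the last 2 at their highest without leading edge D7 replicate 1.

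Around Lhx2 and Sox9, 9 LIM cofactors and SOX partners were measured, and in the LE 4 of them were called lower at D4 and 2 at D7, with 0 higher, against 5.83% and 5.37% of all genes called lower. Ssbp2, which stabilises LIM complexes, had 7.52 and 7.93 in the LE, 8.49 and 8.87 in the hub and 8.88 and 9.03 in control at D4, a difference of -1.23 (adjusted p = 0.000928). Ldb1, the cofactor that LIM-homeodomain proteins bind, differed by -0.75 (adjusted p = 0.00507). Both D4 calls held when any array was left out, although the other Ssbp2 probe sets ran from -2.05 to 0.07. At D7 Ssbp2 (-0.70, adjusted p = 0.0184) and Ldb1 (-0.52, adjusted p = 0.0303) each lost the call in 4 of 12 fits, at most 0.0970 and 0.134 without leading edge D7 replicate 1.

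Sox6, a SOX factor that pairs with Sox9 in cartilage, was lower at D4 (-1.98, adjusted p = 0.0253), and Lmo4, a LIM-only protein, by -0.50 (adjusted p = 0.0229). Both calls were lost in 3 of 12 fits, at most 0.150 and 0.119 without control D4 replicate 2. Between LE and hub, 2 of the 9 were lower at D4 (Ssbp2 and Lmo4) and 1 at D7 (Ssbp2), against 2.15% and 1.4% of all genes. The D4 calls were lost in 2 and 3 fits (at most 0.0809 and 0.198, without proliferative hub D4 replicate 2) and the D7 call in 6 (at most 0.194, without proliferative hub D7 replicate 2). Of 5 measured partners of CD200 and CD34, Podxl, a sialomucin of the CD34 family, was higher in the LE by 0.95 at D4 (adjusted p = 0.00745) and 0.94 at D7 (adjusted p = 0.00776), lost without control D4 replicate 2 (adjusted p = 0.0524) at D4 and in 2 fits at D7 (at most 0.0597, without control D7 replicate 1). Its other probe set gave 0.14 at D4 and 0.09 at D7. Podxl is also an endothelial gene, and the endothelial values are given with Cd34.

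The remaining marker lists place these values among the cells the sort could hold. Beside the counts of these lists, 8.3% of all genes were called higher and 5.83% lower in the LE at D4. At D7 the shares were 9.25% and 5.37%. Of 7 infundibulum and isthmus markers, 2 were called lower in the LE at D7 (Plet1, -0.86, and Lgr6, -0.80), and their mean log2 level was 7.55 to 7.57 in the LE, 7.92 to 8.05 in the hub and 8.09 to 8.42 in control. Of 6 measured ORS and companion layer keratins, 3 were higher in the LE on both days (Krt6a, Krt6b and Krt16). Wounded IFE is also known to make these. Krt6b had log2 levels at D4 of 12.03 and 12.06 in the LE, 11.89 and 11.87 in the hub and 11.17 and 8.69 in control. At D7 it had 11.37 and 10.85 in the LE, 10.75 and 10.77 in the hub and 3.04 and 3.17 in control. Krt6a (0.799) and Krt6b (7.65) were also called higher in the D7 hub, where 0.76% of all genes were called. That call of Krt6a was lost in 4 of 12 fits (at most 0.202, without proliferative hub D7 replicate 2). At D4 Krt6b lost its call in 10 of 12 fits (at most 0.130, without leading edge D4 replicate 1) and Krt16 in 3 (at most 0.178, without control D4 replicate 2). Of 10 hair shaft and inner root sheath genes, 1 was higher (Tchh, 0.71) and 1 lower (Gata3, -0.71) in the LE at D4 and 0 at D7. Tchh lost its call in 3 of 12 fits (at most 0.178, without leading edge D4 replicate 2) and Gata3 in 7 (at most 0.224, without control D4 replicate 2). Of the 8 basal IFE markers, 2 were higher (Itgb1, 0.75, and Itga6, 0.42) and 1 lower (Dst, -1.06) at D4, and Dst alone was lower at D7. The call of Itga6 was lost in 4 of 12 fits (at most 0.136, without leading edge D4 replicate 1).

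Of 7 suprabasal genes 2 were lower in the LE at D4 (Krt1 and Krt10) and 0 at D7, and both lost the call in 3 of 12 fits (at most 0.0998 and 0.173, without leading edge D4 replicate 1). Of 8 melanocyte genes 1 was lower on both days (Mitf), of 6 fibroblast genes 1 was lower at D7 (Dcn), and 0 of 3 sebaceous and 0 of 6 immune genes were called in the LE. The other Mitf probe set gave -0.08 at D4 and -0.03 at D7. The melanocyte list median in the LE was -1.04 at D4, where arrays of a group could stand far apart. Tyrp1 had 4.83 and 9.63 in the hub and 8.48 and 4.51 in control. Mitf lost its call in 2 fits at D4 and 4 at D7 (at most 0.0656 and 0.153, without replicate 2 of the LE of that day), and Dcn in 4 (at most 0.0999, without leading edge D7 replicate 1). The parts of these cells in the differences of the 8 genes were not tested.

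Lastly, the genes whose values followed each member most closely over the 12 arrays were sought among genes with a mean above the median gene, after the mean of each day was subtracted. The correlations describe the same 12 arrays, regional differences included, and carry no test. A gene picked for following Krt15 or Sox9 differs between regions much as they do. The differences and adjusted p of such genes below thus follow from the choice and are no separate result. For Krt15 these were Hoxd11 (r = 0.988), Ackr4 (r = 0.986) and Ccl27a (r = 0.986). Ackr4, a scavenging chemokine receptor, was lower in the LE than in control by -3.47 at D4 (adjusted p = 0.000136) and -2.66 at D7 (adjusted p = 0.000649), and Ccl27a, a chemokine of keratinocytes, by -2.76 (adjusted p = 0.000357) and -2.32 (adjusted p = 0.00103). Hoxd11, a homeobox gene, was lower by -0.74 (adjusted p = 0.0105) and -0.59 (adjusted p = 0.0304).

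For Sox9 they were Egr2 (r = 0.973), Klf6 (r = 0.947) and Adh7 (r = 0.938). Egr2, an immediate early zinc-finger gene, was lower in the LE by -1.25 at D4 (adjusted p = 0.00974), with -0.77 at D7 (adjusted p = 0.0738). Adh7, an enzyme of retinol oxidation, was lower by -1.28 (adjusted p = 0.00538) and -1.23 (adjusted p = 0.00716). The best match of Cd34 was Pacs1 (r = 0.942) and that of Nfatc1 was Lmcd1 (r = 0.911). Those of Cd200 (Asb7, r = 0.847), Lgr5 (Dsel, r = 0.828), Tcf7l1 (Pdlim1, r = 0.823) and Lhx2 (Emsy, r = 0.749) were looser.

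**Figure D5:**
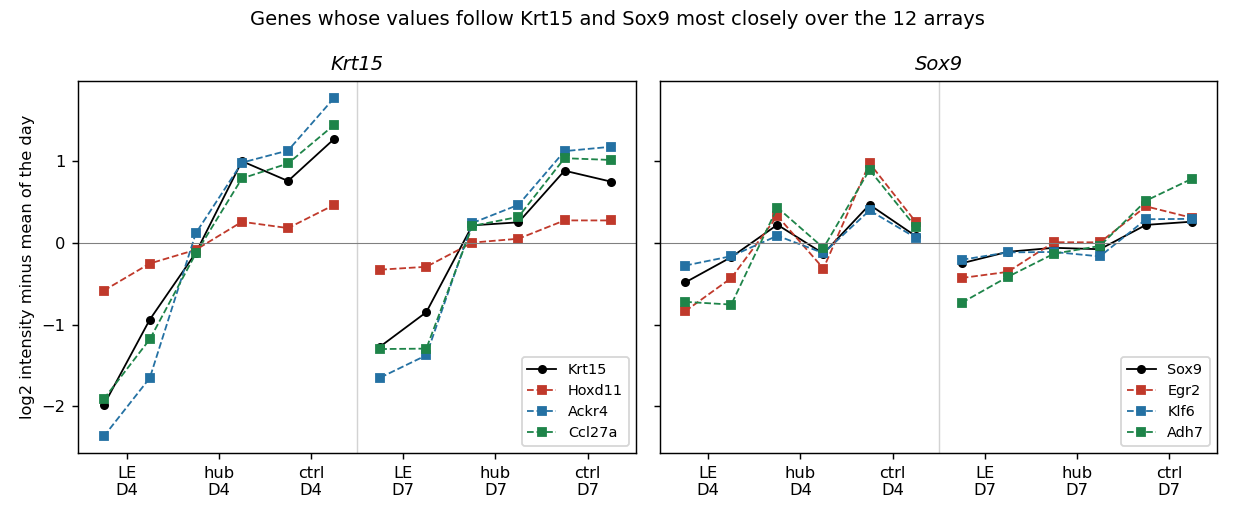
Log2 intensity minus the mean of the day (vertical axis) for Krt15 and Sox9 (black) and the 3 genes that follow each most closely (coloured), on the 12 arrays ordered by day and region. Lines only join the values of a gene, since replicates have no order. The Krt15 group is lowest in the LE on both days, and the Sox9 group peaks at control D4 replicate 1.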

How the data were processed

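RNA was amplified and hybridized to Affymetrix PM strip arrays of the mouse genome. The authors deposited log2 intensities after RMA, which corrects background, normalizes by quantiles and summarises each probe set. Its software version: not given in the sources used here. Of 45141 probe sets, 28898 were paired with 1 gene, and the 551 paired with several genes were not used. Each of 17097 genes was read from its probe set of highest mean. A model with 6 groups was fitted in limma 3.58.1 (R 4.3.3) with 6 residual degrees of freedom and Benjamini-Hochberg adjustment over all genes. Dim probe sets were kept.

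The 8 genes, the 5 lists of related genes and the 10 marker lists were chosen with earlier results of these data known. All 8 genes are named. From each list up to 4 called genes with the largest change per comparison are named, with those that went against their list, and for each gene up to 3 that followed it most closely. The 12 alternatives included other scalings, probe set summaries, priors, weights, subsets of arrays, a replicate block, omission of single arrays, and the study's fold rule. Simulated data for LE against control at D4 held 17097 genes with 200 changed. Of changes of 1 and of 2 on the log2 scale, 78% and 99% were recovered, with 8 false calls. The simulated noise was independent between arrays, and far fewer genes changed than the 14.1% called in the real comparison. These shares therefore check the procedure and do not give its power or error on the real arrays.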

Additional observations from a re-analysis of the deposited data

How the results depend on the processing

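Over the 8 genes and all comparisons, 684 values under the alternatives were recomputed. Of these, 670 kept their status, called or uncalled, 8 lost a call and 6 gained one. Most of the 670 were uncalled in both fits, so their number does not measure how stable the calls are. The sign changed for 0 called values and 5 uncalled ones. Leaving out each array gave 864 values, in which the sign changed for 0 called values and 37 uncalled ones. The calls lost or gained without an array are given with each gene above. For LE against control at D4 the 2 members called became 1 (Krt15 alone) when probe sets of a gene were averaged, and with array weights, the arrays of the day alone, the arrays of the 2 groups alone, the replicate block and the fold rule. With a trended and robust prior it became 3 (Cd34, higher, added). Leaving out an array gave 1 to 3. The 1 member called in the LE at D7 became 2 (Krt15 and Sox9) with the arrays of the day alone, and 0 to 1 without an array. For LE against hub at D4 the 1 became 0 with the arrays of the day alone and of the 2 groups alone, and 0 to 1 without an array. For LE against hub at D7 the 0 became 1 (Krt15) with the arrays of the day alone, of the 2 groups alone, the replicate block and the fold rule. The causes were not tested, although the smaller fits have fewer samples. A filter on dim genes left 4 members (Krt15, Sox9, Nfatc1 and Tcf7l1), and the others have no value there.

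Same-numbered arrays deviated together with r of 0.170 to 0.245 at D4 and 0.002 to 0.067 at D7, and neither the labels nor the methods tie a number to shared mice, so the numbers were not treated as pairs. With the replicate block the adjusted p of Sox9 in the LE at D4 was just over 0.05, and that of Krt15 in the LE against the hub at D7 was 0.0118. It changed no other call of the 8 genes. Of the listed genes named, the LE call of Tcf7l2 at D4 and the hub call of Npnt at D7 were also lost with it. With the arrays of D4 alone the D4 calls against control of Angptl7, Znrf3, Tcf7l2, Nfat5, Sox6, Lmo4, Podxl, Krt6b, Krt16, Krt1, Krt10, Tchh, Gata3, Itga6, Mitf and Tie1 were lost, as were those against the hub of Lgr4, Tle2, Ssbp2 and Lmo4. Quantile normalization ended the LE calls of Tle3 at D7 and Tchh at D4 and the hub call of Krt6a at D7. Subtraction of array medians also ended that of Tchh. Low signal limits Lhx2, Cd34, Lgr5 and Cd200, which lay below the array median on 12, 12, 9 and 4 of 12 arrays.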
